A study of Mus musculus with 36 samples.

Results

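The HoxB and HoxC gene clusters were examined in mouse forelimb at embryonic day 11.5 through the peaks of acetylated histone H3 lysine 27 (H3K27ac), a mark of active promoters and enhancers. All peaks overlapping chr11:96040000-96260000 (HoxB, 220 kb) or chr15:102740000-102880000 (HoxC, 140 kb) of mm9 were taken. This gave 233 of 732259 peaks from 18 deposited peak lists, 136 in HoxB and 97 in HoxC. Stretches covered by peaks of at least 2 libraries formed 9 consensus regions in the clusters, 5 in HoxB and 4 in HoxC, of 63594 in the genome. The 9 genes of interest were Hoxb5, Hoxb6, Hoxb9, Hoxb13, Hoxc4, Hoxc5, Hoxc6, Hoxc10 and Hoxc13.

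Each library came from pooled forelimbs of FVB embryos, with 1 peak list per library. There were 4 wild-type (WT) libraries, 4 from a line with a knockout of the limb enhancer mm1179, and 2 from each of 5 lines with a knockout of hs72, hs1262, hs1467, hs1586 or hs1603. The knocked-out enhancers themselves were not examined here, and mm1179 and hs72 libraries were compared with WT for their HoxB and HoxC peaks. The labels do not say whether libraries of a line came from separate litters. The p-values therefore measure only the spread between libraries, which may be technical. In whole limbs, fewer acetylated cells and less acetylation per cell cannot be told apart.

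Hox genes encode homeodomain transcription factors that give cells their position along the body axis. Within a cluster the genes lie in the order in which they are switched on: genes at the low-numbered end (Hoxb1, Hoxc4) come on early and reach far forward, and those at the Hox13 end come on late and stay at the rear of the body or at the tips of appendages. In the limb, patterning rests mainly on the HoxA and HoxD clusters. Of the genes here, Hoxb5 is known for its part in placing the forelimb along the body wall. Hoxc4, Hoxc5 and Hoxc6 are known from the trunk at the level of the forelimb, Hoxc10 from the hindlimb, Hoxb13 from the tail and the prostate, and Hoxc13 from hair and nail.

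From the Hoxb13 end, the order of HoxB genes in the RefSeq table (GRCm38.p6) is Hoxb13, Hoxb9, Hoxb8, Hoxb7, Hoxb6, Hoxb5, Hoxb4, Hoxb3, Hoxb2 and Hoxb1, and that of HoxC is Hoxc13, Hoxc12, Hoxc11, Hoxc10, Hoxc9, Hoxc8, Hoxc6, Hoxc5 and Hoxc4. In mm9, only approximate positions of the outermost genes were at hand, given to the nearest 0.01 Mb: Hoxb13 near 96.06 Mb, Hoxb1 near 96.23 Mb, Hoxc13 near 102.75 Mb and Hoxc4 near 102.86 Mb. These 4 anchors order the peaks along each cluster. No peak was assigned to Hoxb9, Hoxb6, Hoxb5, Hoxc10, Hoxc6 or Hoxc5, and exons and introns were not assigned.

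The anchors of the outermost genes at the low-numbered ends differed in their nearest peaks, described below. The promoters of these genes are shown for that reason. The sequences are the 250 bases before the gene start from RefSeq (GRCm38.p6, plus strand), 5′ to 3′. A match on either strand to TGATNNAT, a motif of Hox proteins bound with Pbx partners, is in capitals.
Hoxc4: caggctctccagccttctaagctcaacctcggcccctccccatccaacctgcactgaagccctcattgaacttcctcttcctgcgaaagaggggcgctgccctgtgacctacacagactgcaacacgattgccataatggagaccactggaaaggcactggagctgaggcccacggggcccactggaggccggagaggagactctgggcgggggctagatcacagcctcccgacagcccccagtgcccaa
Hoxb1: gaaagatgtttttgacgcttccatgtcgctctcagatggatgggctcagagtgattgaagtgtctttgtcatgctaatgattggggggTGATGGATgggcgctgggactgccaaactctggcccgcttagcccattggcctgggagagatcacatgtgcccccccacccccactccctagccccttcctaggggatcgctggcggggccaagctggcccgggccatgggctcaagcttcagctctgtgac
The Hoxb1 sequence held 1 such match, TGATGGAT, and the Hoxc4 sequence held none. Of the other two promoters of these clusters in the table, that of Hoxb8 held a match and that of Hoxb4 did not. Of 32851 mouse promoters of this length, 7.68% held a match. A match describes the letters only. Of the 19 genes of both clusters, 4 had a promoter in the table, and Hoxc4 was the only one of the 9 genes of interest among them.

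The lists fell into 4 groups by a run tag, used here as technical batches. Replicates 1 and 2 of WT and of mm1179 carried the tag of run 1. Their replicates 3 and 4 carried that of run 2, as did both hs72 libraries. For hs1262, hs1467, hs1586 and hs1603, replicate 1 was in run 3 and replicate 2 in run 4. Lists held 26550 to 58753 peaks, fewest in run 3 and most in run 4. Run 3 stood apart in both clusters: none of its 4 libraries had a peak in the HoxB window, and only hs1467 replicate 1 had any in the HoxC window. Results that rest on run 3 are therefore given with and without it. Read depth is unknown, so a missing peak means that no call was made.

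In forelimb, acetylation of HoxB was concentrated on the Hoxb1 side of the cluster. The consensus region there, HoxB region 4, spanned chr11:96162787-96217312 (54.5 kb), and all 14 libraries outside run 3 had peaks in it. It began 102.8 kb from the Hoxb13 anchor and ended 12.7 kb before the Hoxb1 anchor. Its full width came from run 4, where single peaks reached 57.4 kb. In runs 1 and 2 the widest HoxB peak of a library was 6.35 to 10.3 kb, and separate peaks covered 21.3 to 41.8 kb of the region (21.3 to 40.8 kb in WT). With all libraries, 6 of 63594 consensus regions, itself included, were at least as wide. Built without run 4, HoxB held 9 regions, and the widest, chr11:96199704-96217074 (17.4 kb), was matched or exceeded by 139 of 53117. The authors' score, expressed as a percentile within each list, was 80.6 at its lowest, 97.5 at the median and 100 at its highest for the strongest peak of the region. In WT the values were 96.9, 100, 96.2 and 97.1 for replicates 1 to 4, so the strongest HoxB peak ranked near the top of every WT list.

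**Figure D1:**
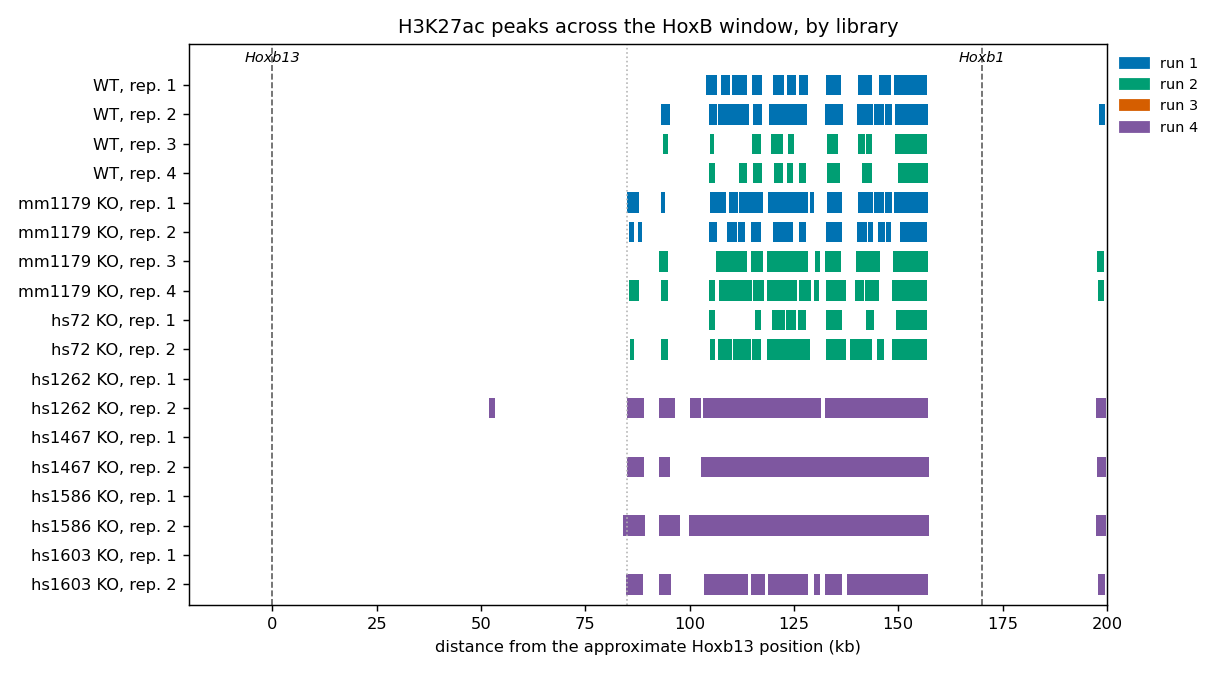
H3K27ac peaks across the HoxB window, with 1 row per library and bars coloured by run. The horizontal axis is the distance in kb from the approximate Hoxb13 position, dashed lines mark the Hoxb13 and Hoxb1 anchors, and the dotted line their midpoint. Peaks of the 14 libraries outside run 3 lie mainly beyond the midpoint and stop 12.7 to 13.2 kb before Hoxb1, and 7 libraries have a peak beyond it.

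The remaining HoxB regions were narrower and called in fewer libraries. HoxB region 1 (chr11:96144820-96149047, 4.23 kb) was called in 8 libraries, of which 0 were WT, 3 mm1179, 1 hs72 and 4 of run 4. Its median percentile was 58.6. The highest, 82.0, was in hs1586 replicate 2, where it held the highest-scoring HoxB peak. HoxB region 2 (chr11:96152687-96156576, 3.89 kb) was called in 10, including 2 WT, with a median percentile of 35.5. HoxB region 3 (chr11:96159978-96162700, 2.72 kb) was called only by hs1262 replicate 2 and hs1586 replicate 2, both of run 4. The percentiles were 31.8 and 81.0, the latter from a peak that also spans HoxB region 4. HoxB region 5 (chr11:96257477-96259745, 2.27 kb), beyond the Hoxb1 anchor, was called in 7 libraries, 1 of them WT, with a median percentile of 35.9. All 4 narrower regions were missed by at least some of the 14 libraries that shared HoxB region 4.

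Within HoxB region 4, the stretches covered in all 14 libraries outside run 3 formed 6 segments when gaps under 500 bp were joined. Together the 14 libraries shared 15.0 kb, which is 6.81% of the window, and any library covered 71.6 kb (32.6%). The broadest segment lay at the Hoxb1 end, at chr11:96210447-96216779 (6.33 kb), with a median percentile of 97.5. The highest-scoring HoxB peak overlapped this segment in 10 of 10 libraries of runs 1 and 2 and in 3 of 4 of run 4. The next in width, chr11:96192893-96195595 (2.70 kb), had a median percentile of 84.4. Toward Hoxb13 followed chr11:96180143-96182273 (2.13 kb, median percentile 81.2) and the outermost, chr11:96175684-96177119 (1.44 kb, 62.7). The other 2, chr11:96183600-96184801 (1.202 kb) and chr11:96202304-96203623 (1.32 kb), had medians of 79.7 and 76.1. In WT replicates 1 to 4 the first had values of 52.9, 90.5, 31.3 and 29.0. The second had 66.5, 76.8, 22.5 and 48.4. Here and in HoxC, a segment takes the percentile of the strongest peak that overlaps it, so a wide peak passes its score to every segment under it. Between segments, the number of calling libraries fell to 2 in chr11:96184802-96192892 (8.09 kb) and to 3 in chr11:96195596-96202303 (6.71 kb).

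The side of HoxB region 4 toward Hoxb1 was placed alike in every library outside run 3. Its high edge lay between 96216779 and 96217317, a range of 0.538 kb (SD 0.177 kb, n = 14). Only 4.77% of the 1930 edges of comparable regions (at least 10 kb wide and called in these 14 libraries) varied by so little, and their median range was 1.96 kb. The low edge, toward Hoxb13, ranged over 6.33 kb, and 92.5% of those edges varied by no more. These shares describe the edges and are not a test.

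Both outermost HoxB anchors lacked a peak within 10 kb. For Hoxb13, no library of 18 had a peak within 10 kb of the anchor. The nearest lay 52.0 to 104.6 kb away outside run 3, with a median of 85.6 kb, and 121.4 to 121.6 kb away in run 3. The 52.0 kb value came from an isolated peak of hs1262 replicate 2. For Hoxb1, the factor at the forward end of the cluster known from hindbrain patterning, the nearest peak lay 12.7 to 13.2 kb away in the 14 libraries, again outside 10 kb. In run 3 it lay 34.4 to 62.8 kb away. Hoxb9 lies next to Hoxb13 in the gene order, and Hoxb6 and Hoxb5 lie in the middle of it, but without mm9 gene positions it was not determined which of them HoxB region 4 covers.

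HoxC was acetylated over a stretch that reached the low-numbered end of its cluster. HoxC region 3 (chr15:102827693-102852411, 24.7 kb) was called in 15 libraries, all 14 outside run 3 and hs1467 replicate 1. HoxC region 4 (chr15:102854747-102873536, 18.8 kb), which spans the Hoxc4 anchor, was called in the same 14 without hs1467 replicate 1. Regions at least as wide made up 0.112% of all for HoxC region 3 (71 regions) and 0.270% for HoxC region 4 (172 regions). Built without run 4, HoxC held 4 regions, and the widest, chr15:102827981-102851781 (23.8 kb), was matched or exceeded by 43 of 53117. It was wider than the widest HoxB region built in that way (17.4 kb), so HoxB held the wider region only with run 4. In WT, peaks covered 17.5 to 21.2 kb of HoxC region 3 and 8.49 to 11.6 kb of HoxC region 4, and in run 4 they covered 22.9 to 24.7 kb and 16.6 to 18.8 kb. For HoxC region 3 the percentiles in WT replicates 1 to 4 were 92.6, 97.2, 91.6 and 92.7, and the median over its 15 libraries was 91.6. The median for HoxC region 4 was 79.2, and 68.2 in WT.

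**Figure D2:**
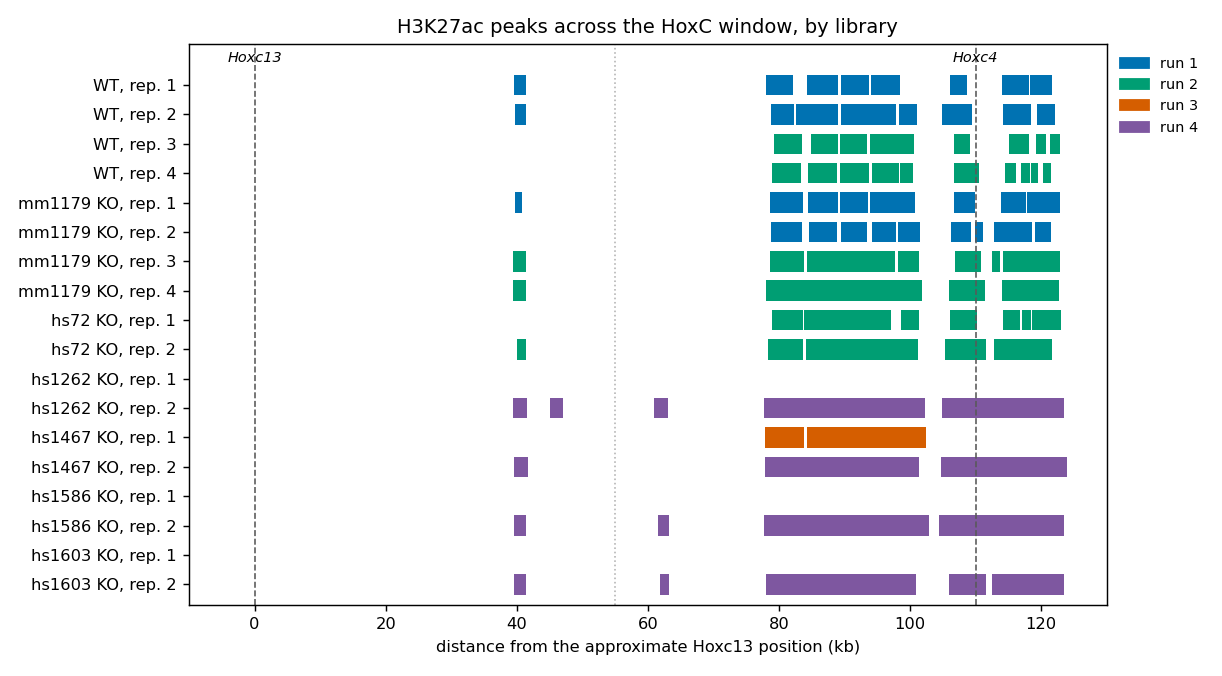
H3K27ac peaks across the HoxC window, with 1 row per library and bars coloured by run. The horizontal axis is the distance in kb from the approximate Hoxc13 position, dashed lines mark the Hoxc13 and Hoxc4 anchors, and the dotted line their midpoint. Peaks lie in HoxC regions 3 and 4 in all 14 libraries outside run 3, unbroken over most of each region in run 4, and hs1467 replicate 1 is the only run 3 library with peaks.

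Toward Hoxc13 the regions were small. HoxC region 1 (chr15:102789440-102791623, 2.18 kb) was called in 10 libraries, 2 WT, 3 mm1179, 1 hs72 and 4 of run 4, with a median percentile of 31.7. HoxC region 2 (chr15:102811533-102813175, 1.64 kb) was called in 3 libraries, all of run 4. Neither was called by every WT library.

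Segments covered in all 14 libraries outside run 3 numbered 10 in HoxC and held 17.99 kb, or 12.9% of the window, and any library covered 51.3 kb (36.7%). Of these, 4 lay in HoxC region 3 with little space between them. They were chr15:102829194-102832120 (2.93 kb, median percentile 91.2), chr15:102834919-102838781 (3.86 kb, 89.1), chr15:102839507-102843444 (3.94 kb, 88.2) and chr15:102844238-102847129 (2.89 kb, 88.2). The segment nearest to Hoxc4, chr15:102856786-102858607 (1.82 kb), had a median percentile of 74.8. The 5 beyond the anchor were 0.139 to 1.07 kb wide. The longest break was chr15:102847130-102856785 (9.66 kb), part of which no library covered. The highest-scoring HoxC peak did not hold to 1 place: in the 10 libraries of runs 1 and 2 it overlapped the first segment of HoxC region 3 in 5, the second in 3, the third in 2 and the fourth in 2, and in mm1179 replicate 4 it lay beyond the Hoxc4 anchor in HoxC region 4. Peaks wide enough to overlap more than 1 segment count under each.

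Hoxc4 was the only anchor gene with acetylation at its position. A peak covered the anchor in 10 of the 14 libraries outside run 3, 1 of 4 WT, 3 of 4 mm1179, 2 of 2 hs72 and 4 of 4 of run 4. In the other 4 of these libraries the nearest peak lay within 1.39 kb, less than the precision of the anchor, so covered and uncovered anchors cannot be told apart at this resolution. In run 3 the nearest peak lay 7.59 to 27.04 kb away. At Hoxc13 no library of 18 had a peak within 10 kb. The nearest lay 39.4 to 78.9 kb away outside run 3 and 77.9 to 135.2 kb away in run 3. Hoxc5 and Hoxc6 neighbour Hoxc4 in the gene order and Hoxc10 lies nearer to Hoxc13; the peaks over each were not determined.

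Long stretches of both windows had no peak in any of the 18 libraries. In HoxB these were chr11:96040000-96112015 (72.02 kb, including the Hoxb13 anchor), chr11:96113423-96143944 (30.5 kb) and chr11:96217318-96257362 (40.05 kb, including the Hoxb1 anchor). In HoxC they were chr15:102740000-102789428 (49.4 kb, including the Hoxc13 anchor), chr15:102797126-102810917 (13.8 kb) and chr15:102813195-102827630 (14.4 kb). WT libraries alone left more bare, with no peak in chr11:96040000-96153172 (113.2 kb) and in chr15:102791470-102827989 (36.5 kb). Any WT library covered 20.9% of the HoxB window and 28.0% of the HoxC window, and all 4 together shared 18.2 kb and 19.2 kb.

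The contrast between the ends of each cluster was then tested by dividing the stretch between the anchors at its midpoint. In HoxB the Hoxb1 side was covered to 39.6% and the Hoxb13 side to 0.178%, a mean difference of 39.4 percentage points over 18 libraries. The Hoxb1 side was higher in 14 of 18, and the 4 run 3 libraries had no peak on either side (two-sided sign-flip permutation test, 100000 resamples, p = 0.0002, Benjamini-Hochberg adjusted p = 0.0006 over 9 tests). Without run 3 the difference was 50.7 ± 16.9 points (SD, n = 14). In HoxC the Hoxc4 side was covered to 39.2% and the Hoxc13 side to 2.01%, a difference of 37.2 points, and the Hoxc4 side was higher in 15 of 18 (permutation p = 0.00014, adjusted p = 0.0006). Without run 3 it was 44.6 ± 5.50 points (SD, n = 14). The location of the peaks was in view when the windows were proposed. No library differed in the other direction, so p follows the number of libraries with peaks rather than the spread. The libraries also mix genotypes and runs, so the tests are given as descriptions only.

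**Figure D3:**
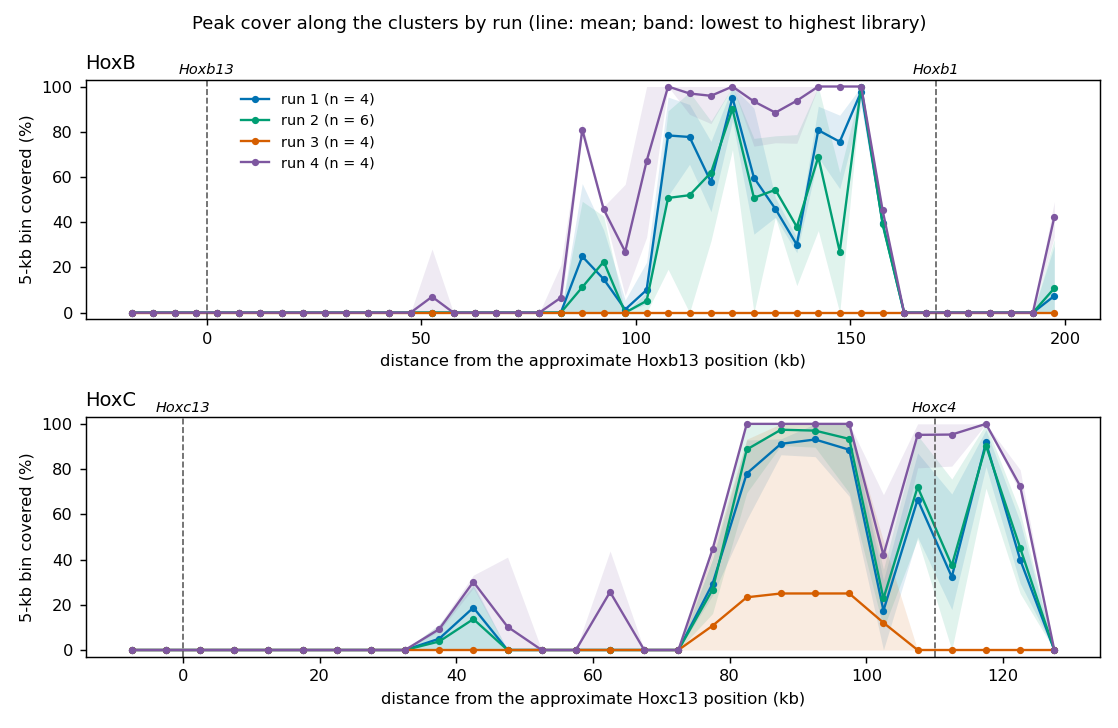
Percent of each 5-kb bin covered by peaks along HoxB (top) and HoxC (bottom), against the distance in kb from the approximate Hoxb13 or Hoxc13 position. Lines are means of the libraries of a run and bands run from the lowest to the highest library. Cover is high in runs 1, 2 and 4 on the Hoxb1 and Hoxc4 sides and 0 around Hoxb13, Hoxb1 and Hoxc13, and the run 3 line in HoxC comes from 1 library.

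Peaks covered a smaller part of the HoxB window than of the HoxC window, 15.7% against 21.7%. HoxB was lower in 15 of 18 libraries and both were 0 in the other 3, a mean difference of -5.96 percentage points (permutation p = 0.00014, adjusted p = 0.0006). Without run 3 it was -6.43 points. No library differed in the other direction, so this p too follows the number of libraries with peaks. The windows were proposed with the peaks in view, and the libraries mix genotypes and runs, so the test is a description only. The windows extend by unequal lengths past the anchors: between the anchors alone, 19.9% of HoxB and 20.6% of HoxC was covered, a difference of -0.70 points (permutation p = 0.710). Without run 3 that difference turned to 0.67 points (25.6% in HoxB against 24.9% in HoxC, permutation p = 0.650), and leaving out hs1467 replicate 1 alone turned it to 0.55 points (permutation p = 0.653). The lower cover of HoxB thus held for the windows as drawn, and between the anchors its direction rested on hs1467 replicate 1.

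In WT the HoxB window was covered over 35.7, 44.4, 22.5 and 23.6 kb in replicates 1 to 4. The mm1179 knockout libraries had 45.6, 33.6, 43.1 and 47.4 kb in HoxB. The ranges overlap, and within WT the run 1 libraries were higher than those of run 2. The mean difference of 10.9 kb (42.4 ± 6.17 against 31.6 ± 10.4 kb, SD, n = 4 each) did not pass an exact two-sided permutation test (p = 0.171, adjusted p = 0.220). Within run 1 the difference was -0.44 kb and within run 2 it was 22.2 kb, with 2 libraries a side in each. The direction in HoxB therefore did not hold within both runs.

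In the HoxC window, WT replicates 1 to 4 had 29.4, 34.6, 27.7 and 28.8 kb. The mm1179 libraries had 33.8, 32.6, 37.8 and 39.8 kb, and WT replicate 2 lay inside their range. The mean difference of 5.93 kb (36.0 ± 3.38 against 30.1 ± 3.06 kb, SD, n = 4 each) did not pass the exact permutation test either (p = 0.0857, adjusted p = 0.188). It was 1.26 kb within run 1 and 10.6 kb within run 2. With peaks of a score of at least 100 alone it was 8.62 kb (exact permutation p = 0.0286, unadjusted), the smallest p that 4 against 4 allows.

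Region by region, 7 of the 9 consensus regions were called by a WT or mm1179 library. None was called in all libraries of one genotype and none of the other, against 61 of 54583 regions in the genome (0.112%). In Fisher's exact test none of the 7 had an unadjusted p under 0.05. With 4 against 4 only such a full separation gives a p under 0.05, so the test repeats that count. HoxB region 1 came nearest, called in 0 of 4 WT and 3 of 4 mm1179 libraries (Fisher's exact p = 0.143, adjusted p = 1).

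The hs72 knockout had 23.6 and 44.4 kb in HoxB and 33.5 and 38.9 kb in HoxC. WT libraries of the same run had 22.5 and 23.6 kb in HoxB and 27.7 and 28.8 kb in HoxC. In HoxB the hs72 libraries lay far apart and the lower one reached 23.6 kb, as did a WT library; in HoxC both lay above both WT libraries. The mean differences were 10.95 kb in HoxB (exact permutation p = 0.667) and 7.95 kb in HoxC (exact permutation p = 0.333), and 2 against 2 cannot go below 0.333.

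**Figure D4:**
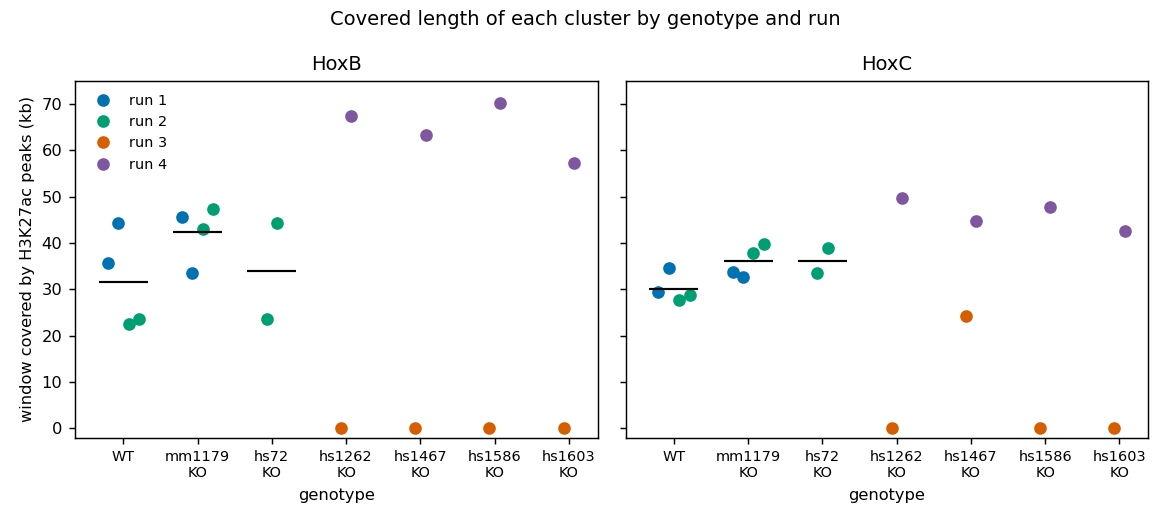
Length of the HoxB (left) and HoxC (right) window covered by H3K27ac peaks in kb, with 1 point per library, grouped by genotype and coloured by run. Horizontal lines are means for WT, mm1179 and hs72. The run 4 points lie above all WT points in both clusters, and the run 3 points are at 0 except hs1467 replicate 1 in HoxC, at 24.2 kb.

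In the remaining 4 lines the covered length followed the run. In run 3, HoxB was at 0 kb in all 4 libraries, and HoxC was at 0 kb in hs1262, hs1586 and hs1603 and at 24.2 kb in hs1467. In run 4, HoxB had 67.4 kb in hs1262, 63.3 kb in hs1467, 70.2 kb in hs1586 and 57.2 kb in hs1603. The matching HoxC values were 49.8, 44.8, 47.8 and 42.6 kb. Every run 4 value exceeded every WT value in covered length, and run 4 lists also covered more of the genome. As a share of all covered bases, run 4 had 0.0390 to 0.0457% in HoxB, inside the WT range of 0.0232 to 0.0516%. In HoxC the share was 0.0276 to 0.0311% in run 4, against 0.0283 to 0.0402% in WT. The mean difference between the runs within lines was 64.5 kb in HoxB and 40.2 kb in HoxC (exact sign-flip permutation p = 0.125 for each, the smallest that 4 pairs allow). No WT library belongs to run 3 or run 4, so for these lines run and knockout cannot be told apart in a comparison with WT.

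Run 3 lists held 26550 to 32472 peaks, against 30719 to 45267 in runs 1 and 2. Run 3 libraries covered 89.6 to 93.6 Mb in all, inside the 62.6 to 115.3 Mb of runs 1 and 2. Run 4 covered 140.9 to 166.0 Mb. Neither peak number nor covered length measures read depth. Of the 9 regions, 3 (HoxB region 4 and HoxC regions 3 and 4) were called in all 14 libraries outside run 3, against 29.9% of all regions. Of these 3, 2 were called by no run 3 library, against 23.5% of the 19031 such regions in the genome. The HoxC peaks of hs1467 replicate 1, 6.02 and 18.2 kb wide, filled HoxC region 3 but ranked low, at percentiles of 56.0 and 9.53. The part of sequencing depth or sample quality in the run 3 calls was not tested.

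Across the 10 libraries of runs 1 and 2, covered length in the clusters was set beside the total covered length of the list. In HoxB, Pearson's r was 0.289 (permutation p = 0.411) and Spearman's rho 0.333 (permutation p = 0.347). In HoxC, r was 0.579 (permutation p = 0.0796) and rho 0.576 (permutation p = 0.0872). Adjusted over these 4 p-values together, p was 0.411 for both measures in HoxB and 0.174 for both in HoxC. Without the 2 libraries farthest from the median, r was 0.0622 in HoxB and 0.511 in HoxC. Neither relation passed the test.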

How the data were processed

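H3K27ac ChIP-seq peak lists of 18 forelimb libraries were used, and the 18 inputs were not used here. Per the submitters' processing notes, the build was mm9 and the tools were MACS 1.4.2, Bowtie 0.12.8, cutadapt 1.1, bcl2fastq 2.17 and CASAVA; settings were not given in the sources used here. Positions and the authors' score, from 40 to 3233.06, are deposited for every peak. The score was used only to filter peaks or as a percentile within its list. The lists hold no read counts, so no interval for counting error was given. No lists were identical.

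Groups came from the labels. An overlap of 1 bp or more with a peak counted as a call of the region in that library. Library values were compared by sign-flip or exact permutation tests and regions by Fisher's exact test, both with Benjamini-Hochberg adjustment, over the 9 comparisons and over all regions tested. The procedures were tested on simulated data. As alternatives, peaks were limited to scores of at least 100 or to the best 26550 of every list, with other bounds, 50% region cover, genotype means, the replicate block and leaving out libraries. Within-run values, labels arranged within runs, cover between the anchors without run 3 or hs1467 replicate 1, and regions built without run 3 or run 4 were chosen after seeing the data.

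The windows, genes and lists were chosen with earlier results of these data known. All 9 genes were named, and regions by width, by nearness to an anchor and as bare stretches of at least 10 kb. The RefSeq table was of another build, so it gave only names, gene order and promoter sequences, and labelled tissue was not checked against marker genes. Coordinates are 1-based. The tools were matplotlib 3.10.9, scipy 1.17.1, numpy 2.4.6 and Python 3.11.15.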

Additional observations from a re-analysis of the deposited data

Results flagged for a closer look

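The number of HoxB peaks in mm1179 replicate 3 was 9, against 14, 14 and 14 in the other mm1179 libraries, so it stood apart from its group. Its covered length was 43.1 kb, inside the range of the other 3 (33.6 to 47.4 kb). Of 16 groups of values examined in this way, 1 stood apart. The other 3 counts were tied, so any different count would have stood apart. The usual chance rate of 1 in 20 therefore does not apply.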

How the results depend on the processing

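Of 145 alternative values, 136 kept direction and side of the threshold or, for counts and lengths with no test, stayed within 1.5 times. Sizes of tested differences could still move, as within runs. Some values could not pass the threshold in any case: those for hs72, for run 4 against run 3, within runs and with the replicate block. Others kept a shared length of 0 kb, which filtering peaks cannot raise. The tally is therefore not a measure of stability. The HoxB minus HoxC difference in percent covered shrank to -0.70 points between the anchors, and turned to 0.67 there without run 3 and to 0.55 without hs1467 replicate 1. HoxB held 9 consensus regions without run 4, against 5, and HoxC held 5 with regions of 1 library, against 4. The HoxB difference between mm1179 and WT turned to -0.44 kb within run 1. With a minimum score of 100, the HoxC difference was 8.62 kb (exact permutation p = 0.0286, unadjusted). The cause of these changes was not tested. The length covered by all libraries was 0 kb in each cluster with run 3, and 15.0 kb in HoxB and 17.99 kb in HoxC without it, which follows from the missing run 3 calls. Leaving out 1 library at a time, the HoxB minus HoxC difference ran from -6.31 to -5.30 points, the difference between the sides from 37.2 to 41.8 points in HoxB and from 36.1 to 39.4 in HoxC, mm1179 minus WT from 7.85 to 15.2 kb in HoxB and from 4.66 to 7.42 kb in HoxC, and run 4 minus run 3, leaving out 1 line, from 62.6 to 66.9 kb and from 37.0 to 46.7 kb. Cluster regions separating mm1179 from WT numbered 0 to 1, with 1 only without mm1179 replicate 3. Over the genome such regions numbered 134 without that library, against 61 with all libraries. Leaving out 1 library at a time gave 134 to 221.

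With the replicate number as a block, exact p for mm1179 against WT was 0.375 in HoxB and 0.25 in HoxC, and 0.5 for the count of cluster regions called per library (5.75 against 4.25). With 4 pairs the exact permutation p cannot go below 0.125, so the block could not have changed a call. Correlations of same-numbered libraries were 0.0139 to 0.0953, and 1 of 4 libraries correlated best with its own number. Leaving out hs72 libraries was not run, since 1 would remain. Unknown read depth limits every statement on missing peaks.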
